A study of Mus musculus with 9 samples.

Results

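Cholesterol and fatty acid synthesis was examined through 28 genes, chosen by name for their place in the pathway, out of 18049 genes listed for 9 cell clones. The 28 genes were 7 enzymes of the mevalonate steps, 11 enzymes that lead from squalene to cholesterol, 3 regulators, 6 genes of the fatty acid arm and the sterol transfer protein gene Stard4. All 28 were found by symbol, and all 28 had a mean of at least 10 normalized counts, the filter that left 14705 genes for testing. The clones were murine primary cells cultured from tumors (MPC) of WTg mice, which carry CAG-Mettl3 beside EL1-Luc/EL1-Tag. In these mice the pancreatic elastase I promoter (EL1) drives luciferase and the SV40 large T antigen in acinar cells, and the ubiquitous CAG promoter drives the open reading frame of Mettl3, the catalytic subunit of the RNA N6-methyladenosine methyltransferase. Tumor tissue was minced and plated, and colonies were picked with cloning cylinders, so each library is 1 clone. All clones therefore shared the same transgenes, the same medium with 10% fetal bovine serum and a treatment given as none, although another label field of the same samples names 80 nM NMS-P937 for 24 h. The ages of the mice and which clones came from the same mouse are not given, and the spread between the 9 clones may in part be technical. There were no clones without the Mettl3 transgene to compare with, because the paper reports that none could be established from EL1 mice.

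Cells make cholesterol from acetyl-CoA through mevalonate, isoprenoids and squalene, and they make fatty acids from the same acetyl-CoA through malonyl-CoA. Both arms are switched on by the sterol regulatory element binding proteins (SREBPs), with SREBP-2, from Srebf2, acting mainly on cholesterol synthesis and SREBP-1, from Srebf1, mainly on fatty acid synthesis. When membranes hold enough sterol, INSIG proteins keep the SREBPs in the endoplasmic reticulum, and when sterol is scarce the SREBPs move to the Golgi apparatus, are cut and enter the nucleus. On many of their target promoters SREBPs act together with the factors NF-Y and Sp1. Serum in the medium supplies lipoprotein cholesterol, and macrophages also receive sterol from the cells and particles that they take up.

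The promoter letters of the sterol arm are shown because they are a feature that the choice of genes did not use. RefSeq promoter windows (GRCm38.p6, 250 bases before to 50 after the start of the gene) were at hand for 22 of the 28 genes. No window was used for Fdps, Fdft1, Sqle, Scd1, Scd2 and Stard4. The core letters of the sterol regulatory element, TCACNCCAC, were sought on both strands, and 1 of the 22 genes held them. This was Hmgcs1, cytosolic HMG-CoA synthase, with the match starting 137 bases before the gene's start. The line below shows chr13:119690204-119690232 (plus strand). Capitals mark the match, which lies on the strand of the gene at 119690214-119690222.
Hmgcs1 sterol element: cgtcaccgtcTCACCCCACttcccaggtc
Over all 27025 genes with a window, 1.436% held these letters. SREBP sites vary in their letters, so windows without this string say nothing of whether a gene is bound.

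The letters CCAAT, which NF-Y binds, were more widely shared. They stood on either strand in 19 of the 22 windows' genes (86.36%), compared with 41.06% of all genes with a window and 43.29% of the 10724 tested genes with one. Of the 15 sterol enzymes with a window 14 held them, 9 of these at least 2 times, and 13 had a match starting within 100 bases before the start. Only Acat2 among those 15 enzymes lacked them. In the fatty acid arm 2 of 4 genes held them, Fasn and Acly, and Acaca and Elovl6 did not. The GC box letters GGGCGG, which Sp1 binds, were in 18 of 22 genes (81.82%), compared with 67.65% of the tested genes. In Hmgcs1 the sterol element overlaps none of the 4 CCAAT matches. All of these shares are descriptions without a test. Shown next is the match nearest before the start in Hmgcs1 and in the 5 other genes that rose with it in the clones and have a window, with the match in capitals. It reads ATTGG where CCAAT lies on the opposite strand.
Hmgcs1, chr13:119690296-119690320, plus strand: cccgcctctcATTGGctgaaagcgg
Idi1, chr13:8885582-8885606, plus strand: ccaaggtgccATTGGctggcgaccg
Lss, chr10:76531533-76531557, plus strand: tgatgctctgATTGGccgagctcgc
Cyp51, chr5:4104712-4104736, minus strand: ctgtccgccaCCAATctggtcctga
Msmo1, chr8:64733619-64733643, minus strand: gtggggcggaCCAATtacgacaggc
Insig1, chr5:28071186-28071210, plus strand: ccctcctcccATTGGctccggcggc
In the enzymes these matches started 14 to 62 bases before the start of the gene. In Insig1 the match lay farther away, 216 bases before it.

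**Figure D1:**
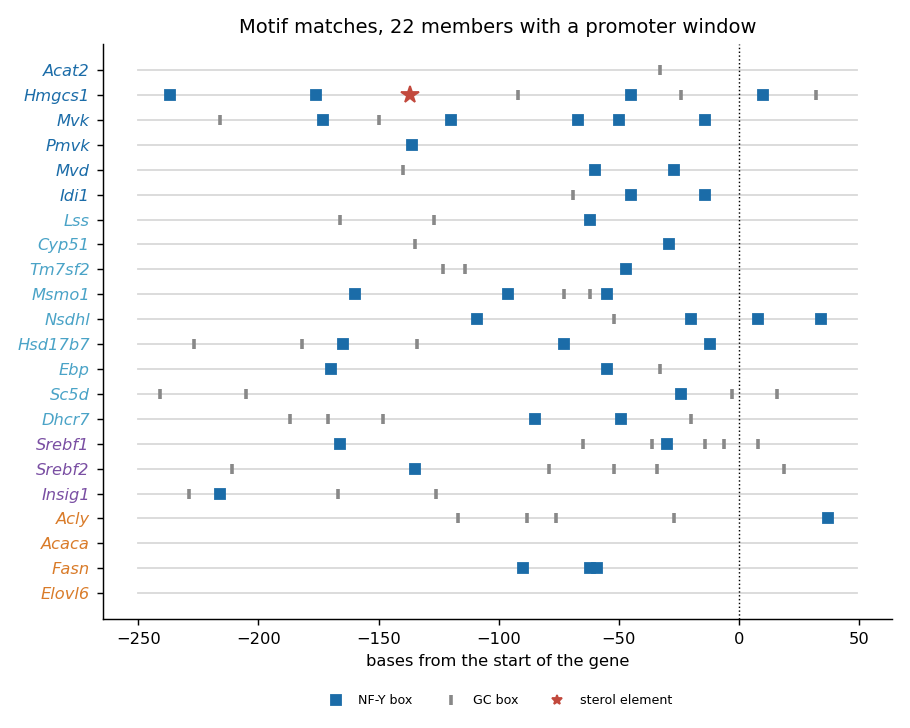
Positions of motif matches in the promoter windows of the 22 members that have one, in bases from the start of the gene (x axis, dotted line at 0), with 1 row per gene in the colours of its role. Squares (NF-Y box) lie in 14 of 15 sterol enzymes, mostly within 100 bases before the start, the star (sterol element) lies in Hmgcs1 alone, and Acaca and Elovl6 hold no match.

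The deposited values are log2 of scaled read counts with an offset of 4. The scaled reads are called normalized counts here. Gene counts summed to 12198042 to 20453901 reads in a library, and 3 reads, the floor used here, were worth 3.79 to 6.56 normalized counts. MET was the shallowest library, and all others held 16526379 reads or more. Column names carry a prefix, MET for 1 library, Whe10 for 4 and Whe3 for 4, whose meaning is not stated, and no column can be tied to a sample title. All 28 genes were above the floor in all 9 libraries. The cells are labelled as fibroblasts. All 12 macrophage markers were above the floor in every library (Lyz2 from 287615 to 577311 normalized counts), as were 11 of 12 fibroblast markers. Of the 5 epithelial markers, Epcam was at 0 reads throughout, Krt8 and Krt18 reached at most 1.29 and 6.47 normalized counts, and Krt19 (7.23 to 145 normalized counts) and Cdh1 (8.91 to 152) were above the floor in every library. In such bulk samples fewer cells of a type and less RNA per cell cannot be told apart. Genes of acinar digestive enzymes were highest in Whe3 5A, where the 6 markers summed to 2415 normalized counts against 144 to 396 in the other 8. Without Cela1, which was at 144 to 293 in all libraries, the other 5 acinar markers summed to 2126 in Whe3 5A, to 175 in Whe3 12A and to 0 to 20.4 in the rest. Values are not divided by transcript length, so levels are compared between clones and never between genes.

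The cholesterol enzymes varied together between clones. Hmgcs1, which makes HMG-CoA at the entry to the mevalonate pathway, had its lowest value at 911 normalized counts, its median at 1613 and its highest at 2462. The low end was Whe3 7A with Whe3 12A next at 1004, and the high end was Whe3 5A with Whe10 10A next at 2148. Idi1, isopentenyl-diphosphate isomerase, ran from 298 through a median of 1020 to 1511. Its lowest and highest clones were the same as for Hmgcs1, and the ratio of 5.06 between them was the largest of the 28 genes. Fdps, which makes farnesyl diphosphate, ran from 586 through 1262 to 1732, again from Whe3 7A to Whe3 5A. The remaining mevalonate enzymes spanned less. Mvd, the decarboxylase at the end of the mevalonate steps, lay between 239 and 555, Acat2, which condenses acetyl-CoA, between 289 and 505, Pmvk between 226 and 404 and Mvk between 298 and 451, the last 2 being the mevalonate kinases. Mvk was the narrowest of the 7, with a ratio of 1.51. A few reads of Idi1 and Acat2 could belong to their near copies Idi1-ps1, listed at a mean of 14.8 normalized counts, and Acat3, at 4.22.

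From squalene onward the same pair of clones was low, and the highest clone varied by gene. Whe3 7A and Whe3 12A were each among the 2 lowest for 10 of the 11 enzymes, whereas Whe3 5A was highest for 1 and Whe10 10A for 3. Sqle, squalene epoxidase, a rate-limiting step of the later pathway, ran from 415 in Whe3 7A through a median of 1179 to 1757 in Whe3 5A. Cyp51, the lanosterol demethylase, ran from 433 in Whe3 7A through 1442 to 1672 in Whe10 8A. Whe3 12A was the next lowest for Cyp51 at 673, and the other 7 clones were at 998 or above. Msmo1, which removes methyl groups at the sterol's C4 position, ran from 790 in Whe3 7A through 1794 to 2778 in Whe10 10A. Fdft1, squalene synthase, lay between 313 and 897, Lss, which closes the sterol rings, between 506 and 1027, and Sc5d, the lathosterol desaturase, between 682 and 1563. Nsdhl, which works with Msmo1, lay between 293 and 612, Hsd17b7, its partner reductase, between 564 and 1133, and Tm7sf2, a sterol C14 reductase, between 157 and 401. Ebp, the sterol isomerase, was the exception in this group, at 724 to 945 in all 9 clones, a ratio of 1.31. Dhcr7, which catalyses the closing reduction to cholesterol, was lowest in MET at 505, with a median of 730 and a maximum of 1061 in Whe10 7A.

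Ranked within each gene, Whe3 7A was among the 2 lowest libraries for 17 of the 18 sterol enzymes, and Whe3 12A for 15 of 18. Over all tested genes these shares were 18.4% and 31.4%. At the other end, Whe10 10A and Whe3 5A were each among the 2 highest for 12 of the 18 enzymes, compared with 25.6% and 18% of the tested genes. Summed over the 18 enzymes, the level ran from 8474 normalized counts in Whe3 7A and 9963 in Whe3 12A to 20348 in Whe3 5A, a ratio of 2.40. Markers of other cell types also differed between the clones. The summed epithelial markers were at 156 to 188 normalized counts in the 4 clones with the lowest sterol sums (Whe3 7A, Whe3 12A, Whe10 11A and Whe3 11A) and at 20.3 to 50.4 in the other 5. The summed fibroblast markers were above their median of 581798 in both low clones, at 652202 in Whe3 7A and at 951005, the highest value, in Whe3 12A. Fn1 made up the largest part of that sum, at 288174 and 432514 in these clones. Single markers of the list differed in direction, and Dcn had its 2 lowest values there (224 and 217). The summed macrophage markers were highest in Whe3 7A (860155) and lowest in Whe3 12A (547135), although Csf1r, the receptor for the growth factor CSF1, had its 2 lowest values in these clones (24658 and 20587). The part of these markers in the sterol levels was not tested.

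**Figure D2:**
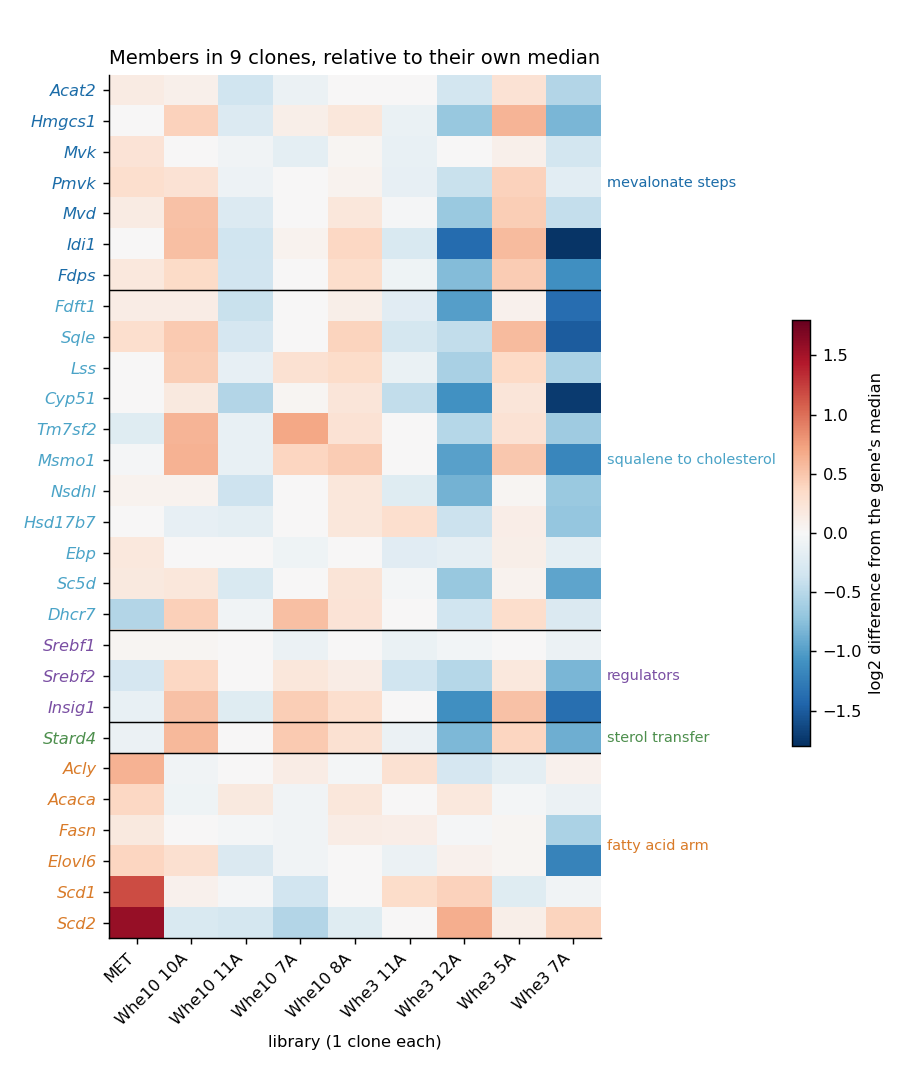
Each member (rows, grouped by role) in each of the 9 libraries (columns), as the log2 difference from that gene's own median over the libraries (colour bar). Whe3 7A and Whe3 12A are blue across most of the sterol enzymes, Insig1, Srebf2 and Stard4, Srebf1 is near white throughout, and the fatty acid arm is red in MET.

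Of the regulators, Insig1, which retains the SREBPs and is itself an SREBP target, moved with the enzymes, from 634 normalized counts in Whe3 7A through a median of 1630 to 2359 in Whe10 10A. Srebf2 ran from 2562 in Whe3 7A through 4531 to 5879 in Whe10 10A. Srebf1 was nearly level, from 1891 through 2061 to 2109, a ratio of 1.12. Its a and c isoforms were counted together. Stard4, which carries cholesterol between membranes, ran from 483 in Whe3 7A through 889 to 1335 in Whe10 10A. Whe3 12A was the second lowest for Insig1 at 759, for Srebf2 at 3186 and for Stard4 at 507, so the same pair of clones was low for all 3 genes.

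The fatty acid arm had another order of clones. All 6 of its genes were highest in MET, whereas 19.96% of the tested genes were. Scd2, a stearoyl-CoA desaturase, ran from 1897 in Whe10 7A through a median of 2725 to 8123 in MET, where it was 1.90 times the next library. Scd1, its paralog, ran from 763 through 972 to 2191, with the next library at 1291. Reads that match both of these paralogs may be split between them. Acly, which makes cytosolic acetyl-CoA for both arms, ran from 4066 in Whe3 12A through 5028 to 7755 in MET. Acaca, acetyl-CoA carboxylase, ran from 1072 through 1150 to 1495, and Fasn, fatty acid synthase, from 2540 through 3779 to 4263. The MET value of Fasn was 1.03 times the next one, a difference smaller than the SD over the clones (507). Upper quartile scaling lowered MET by 0.07 in log2 and raised Whe3 11A by 0.05, after which Fasn was no longer highest in MET. Elovl6, which elongates palmitate, ran from 105 in Whe3 7A through 246 to 324. Acaca, Fasn and Elovl6 were lowest in Whe3 7A, as were 12 of the 18 sterol enzymes, and Acly, Scd1 and Scd2 were not. MET is a single library of its own prefix, so its difference has no replicate check, and clone, prefix and depth cannot be told apart there.

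The spread of the 28 genes was wide against that of other genes. Their median SD of log2 values over the clones was 0.41, compared with 0.25 over all tested genes, and 23 of 28 lay above that value. Counting error alone would give these genes an SD between 0.02 and 0.12. The widest was Idi1 with an SD of 0.82, at percentile 90.4 of the tested genes, followed by Insig1 (0.69), Cyp51 (0.68), Sqle (0.65), Scd2 (0.65) and Msmo1 (0.65). At the narrow end, Srebf1 had an SD of 0.06, at percentile 1.66, and Ebp of 0.13. The 24 other genes of sterol and fatty acid metabolism that were looked at beside them had a median SD of 0.21.

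**Figure D3:**
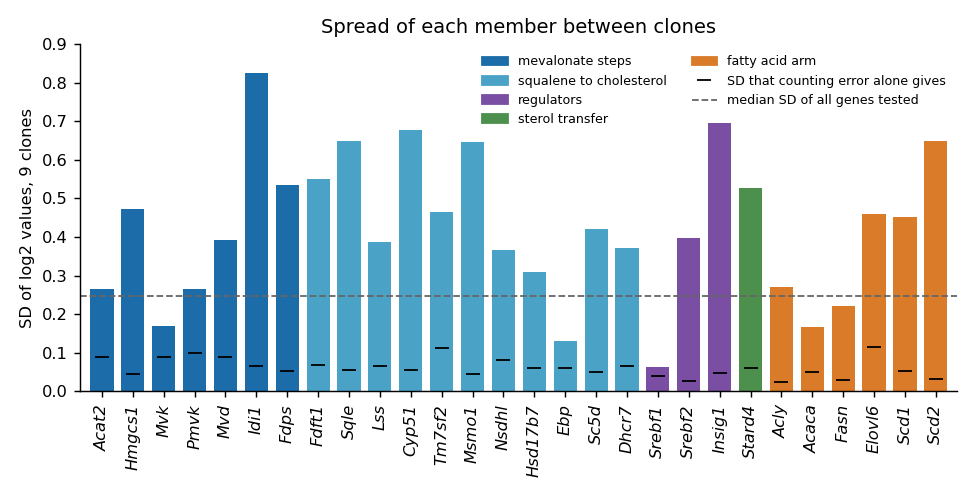
SD of the log2 values over the 9 clones (y axis) for each member (bars, coloured by role), with a short black line at the SD that counting error alone gives and a dashed line at the median SD of all genes tested (0.25). Idi1, Insig1 and Cyp51 stand highest, and the bar of Srebf1 is close to its counting error.

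To ask which genes followed the sterol arm, the log2 value of every tested gene was fitted on that of Hmgcs1 with limma over the 9 clones, with p-values adjusted over all 14704 genes by the Benjamini-Hochberg method and called at an adjusted p under 0.05. A slope of 1 means that a doubling of Hmgcs1 goes with a doubling of the gene. Of the 27 other members 7 rose with Hmgcs1 and 0 fell, where 0.0748% of all tested genes rose (11 genes) and 0% fell. The strongest of all 14704 genes was Idi1 (slope 1.70, SE 0.14, adjusted p = 0.00621 in limma). Fdps (slope 1.10, SE 0.11), Msmo1 (slope 1.31, SE 0.14) and Insig1 (slope 1.41, SE 0.15) followed at the same adjusted p of 0.0128 in limma. Lss had a slope of 0.79 (SE 0.09, adjusted p = 0.0252), Cyp51 of 1.36 (SE 0.17, adjusted p = 0.0255) and Stard4 of 1.04 (SE 0.14, adjusted p = 0.0459), all in the same limma fit. The other 4 called genes are named here after their values were seen. They were Pcyt2, of phosphatidylethanolamine synthesis (slope 0.65), the collagenase Mmp13 (1.83), Ptchd1 (1.68) and Cytip (1.68). Members took 10 of the first 20 places when genes were ordered by p and 13 of the first 40.

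The other members lay below the threshold, mostly with slopes in the same direction. Slopes were above 0 for all 17 other sterol enzymes, here and in all 15 alternatives, and 15 of these had an unadjusted p under 0.05, compared with 1426 of all 14704 genes. Mvd (0.78, SE 0.12), Fdft1 (1.07, SE 0.16) and Sqle (1.25, SE 0.20) had adjusted p-values of 0.0668, 0.0714 and 0.0764 in limma. The smallest slopes of the sterol enzymes were those of Ebp (0.18, SE 0.09) and Mvk (0.18, SE 0.13). Srebf2 had a slope of 0.75 (SE 0.14, adjusted p = 0.179 in limma) and Srebf1 of 0.07 (SE 0.06, adjusted p = 0.665). In the fatty acid arm 0 of 6 genes passed, 3 slopes were above 0 and 3 below, and their median was -0.01, close to the median of 0.01 over all tested genes. The sign was not stable for Acly (0.01), which lay between -0.17 and 0.15 over the 15 alternatives and was below 0 with upper quartile scaling among them, nor for Acaca (-0.04), between -0.19 and 0.01. The extremes there were Elovl6 at 0.62 (SE 0.26) and Scd2 at -0.43 (SE 0.43).

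**Figure D4:**
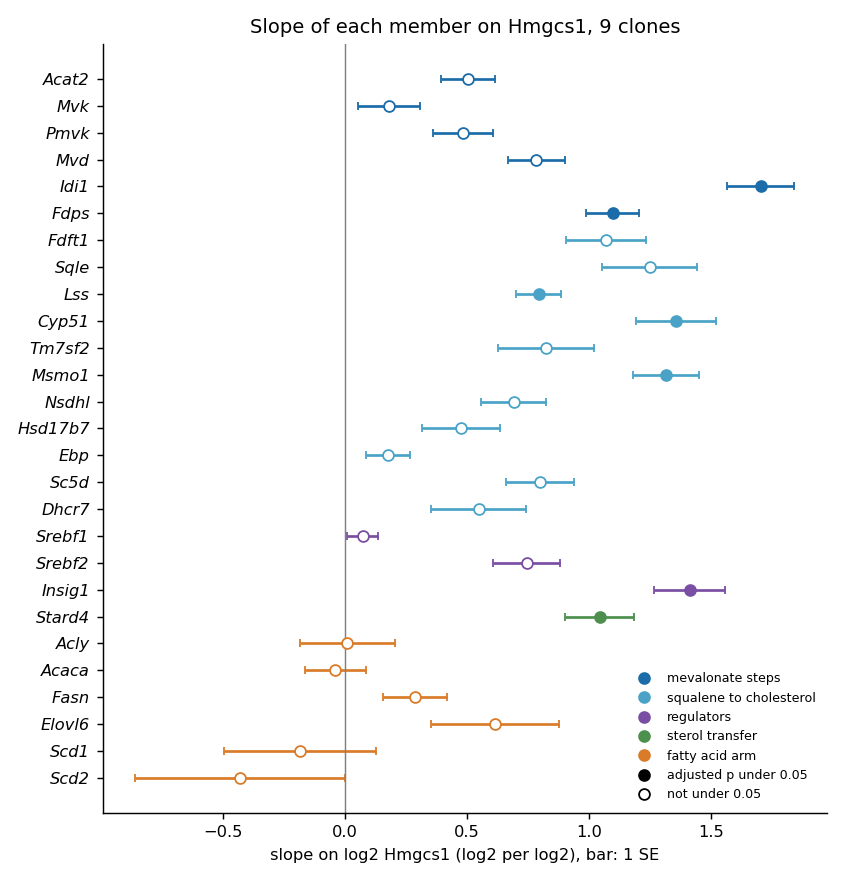
Slope on log2 Hmgcs1 (x axis, log2 per log2, with bars of 1 SE) for the 27 other members, coloured by role and filled where the adjusted p in limma was under 0.05. The 7 filled points lie between 0.79 and 1.70, Srebf1 lies next to 0, and the fatty acid arm scatters around 0.

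These calls depended on single clones. Without Whe3 7A, without Whe3 12A or without Whe10 10A, 0 members and 0 genes were called by limma, and without any of Whe10 11A, Whe10 7A, Whe10 8A or Whe3 11A 4 members were, of 4 or 5 genes in all. In the 3 fits with no call, 17 to 19 of the 27 members and 781 to 2027 of all genes still had an unadjusted p under 0.05 in limma. Without Whe3 5A, the clone with the highest Hmgcs1 and the most acinar RNA, 9 members were called, all rising, where 0.068% of the tested genes rose (10 genes). Without MET 10 members were called, where 0.19% of the tested genes rose and 0.068% fell (28 and 10 genes). The slopes moved less than the calls. Over 15 alternatives the slope of Idi1 stayed between 1.54 and 1.90, that of Fdps between 0.98 and 1.20, that of Insig1 between 1.28 and 1.59 and that of Stard4 between 0.91 and 1.21. With the prefix as a term over the 8 libraries of Whe10 and Whe3, 8 members were called of 24 genes in all, and Srebf2 was among them (slope 0.62, adjusted p = 0.0482 in limma). In the fit over all 9 clones 0 of the 12 macrophage markers and 0 of the 12 fibroblast markers were called by limma. In each list 1 marker had an unadjusted p under 0.05 in limma. These were Csf1r (slope 0.79, SE 0.24, unadjusted p = 0.00986 in limma) and Pdgfra (slope -1.57, SE 0.67, unadjusted p = 0.0426). Macrophage marker slopes were above 0 for 10 and below 0 for 2, and fibroblast marker slopes above 0 for 2 and below 0 for 10. Calls were also made for 0 of 2 epithelial, 0 of 6 acinar, 0 of 3 endothelial and 0 of 2 adipocyte markers tested, with 1 epithelial marker among them at an unadjusted p under 0.05. The epithelial markers had slopes opposite to those of the sterol enzymes, Cdh1 of -1.73 (SE 0.56, unadjusted p = 0.0128 and adjusted p = 0.446 in limma) and Krt19 of -1.74 (SE 0.84, unadjusted p = 0.0659 and adjusted p = 0.524). The acinar markers had a median slope of 1.55. The part of these markers in the members' slopes was not tested.

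**Figure D5:**
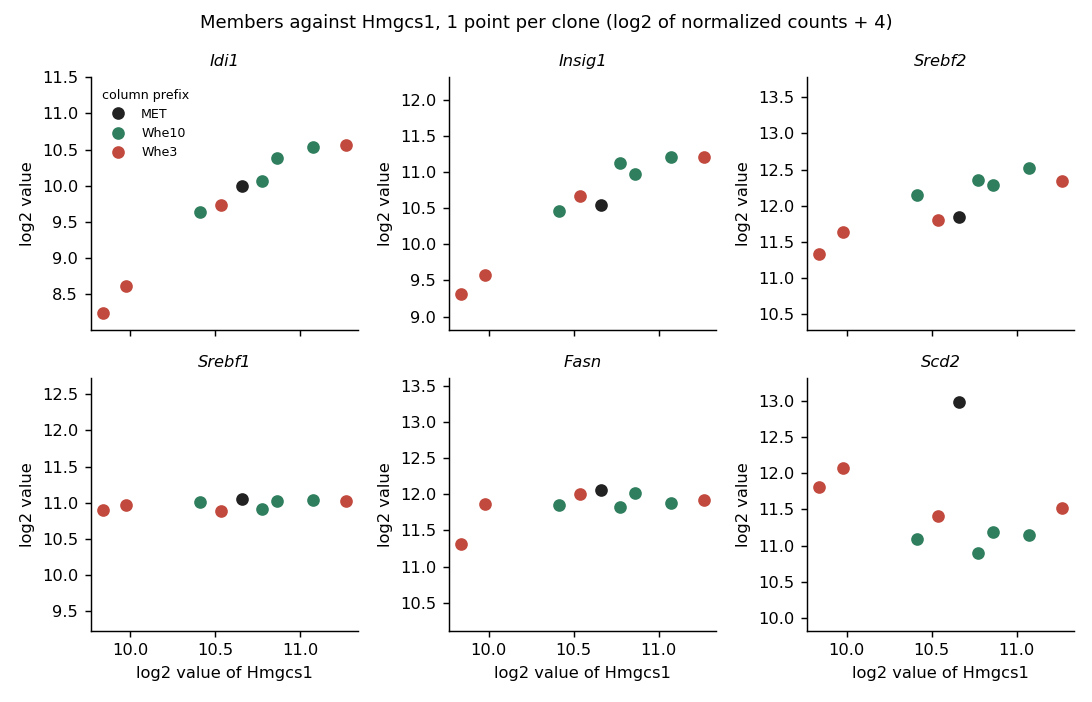
Log2 values of 6 members (y axes, all spanning the same number of log2 units) against the log2 value of Hmgcs1 (x axes), with 1 point per clone coloured by the prefix of its column. Idi1, Insig1 and Srebf2 climb with Hmgcs1, Srebf1 lies flat, Fasn has 1 low clone (Whe3 7A), and Scd2 is highest in MET.

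The same fit on Fasn, taken for the fatty acid arm, called 0 of 27 members and 0 genes in all (rising 0%, falling 0%), with 407 genes at an unadjusted p under 0.05 in limma and 0 called by voom. In simulated data this fit recovered none of the genes that followed Fasn at a slope of 1, so a count of 0 says nothing of whether genes followed it at such a slope. Steeper slopes were not simulated, so how many genes the fit would miss there is not known. The SD of Fasn over the clones was 0.22, and the 7 clones between MET and Whe3 7A lay at 3622 to 4156 normalized counts. All 27 slopes were above 0, but that of Scd2 was below 0 with upper quartile scaling, those of Scd2 and Acly without MET, also with the prefix as a term, and those of Stard4, Srebf2, Tm7sf2 and Dhcr7 without Whe3 7A. The members ahead by unadjusted p were Elovl6 (slope 1.87, SE 0.35) and Sqle (slope 2.43, SE 0.55), whereas Scd2 had a slope of 0.20 (SE 0.96). In all 13 members had an unadjusted p under 0.05 in limma. Without Whe3 7A, the clone with the lowest Fasn, 0 members did, and the slopes of Elovl6 and Sqle were 0.93 and 1.54.

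The remaining fits asked whether the genes followed Mettl3, the gene of the transgene, or Plk1, the mitotic kinase that the study follows. Mettl3 was at 2184 normalized counts in MET and between 468 and 621 in the other 8 clones. Of 28 members 0 were called with Mettl3, where 0.347% of the tested genes rose and 1.85% fell (51 and 272 genes), and voom called 0 members as well. At an unadjusted p under 0.05 there were 4 members, all of the fatty acid arm, and 2172 of the 14704 genes. Of the 12 macrophage markers 1, Cd14, rose with Mettl3. The nearest to the threshold were Scd1 (slope 0.50, SE 0.14, adjusted p = 0.118 in limma), Acly (slope 0.31, SE 0.09, adjusted p = 0.125) and Scd2 (slope 0.67, SE 0.21, adjusted p = 0.173). Without MET the slopes of Scd1 and Scd2 were -0.84 and -1.82, neither of them called, and 0 genes in all were called by limma (1632 at an unadjusted p under 0.05). The slope of Acly stayed between 0.17 and 0.35 in all 15 alternatives. The sterol enzymes had a median slope of 0.14 on Mettl3, with 16 of 18 above 0 and 0 of 18 at an unadjusted p under 0.05. Their direction turned in the fit with the prefix as a term, which leaves out MET. There 0 of 18 were above 0, the median was -2.22 and 0 of 28 members had an unadjusted p under 0.05. In the other alternatives 12 to 16 of 18 were above 0.

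Plk1 ran from 299 normalized counts in Whe10 10A through a median of 525 to 1228 in Whe3 12A. The summed sterol enzymes of these clones were at 20056.5 and 9963, near but not at the ends of the range (8474 in Whe3 7A and 20348 in Whe3 5A). Of 28 members 0 were called with Plk1, although 4.12% of the tested genes rose and 4.64% fell (606 and 683 genes), and voom called 0 members too. Slopes were below 0 for 17 of 18 sterol enzymes, with a median of -0.37, although those of Acat2, Pmvk, Hsd17b7 and Ebp were above 0 without Whe3 12A and those of Sqle and Hsd17b7 with the prefix as a term. At an unadjusted p under 0.05 there were 6 members, and 4353 of the 14704 genes. The smallest adjusted p in limma was that of Dhcr7, 0.105 at a slope of -0.42 (SE 0.15). Without Whe3 7A 5 members fell with Plk1, where 4.16% of the tested genes fell (611 genes), and these were Stard4 (slope -0.62), Srebf2 (-0.43), Msmo1 (-0.69), Tm7sf2 (-0.56) and Lss (-0.45). In the fit over all 9 clones 4 of the 12 macrophage markers fell with Plk1 and 1 fibroblast marker, Col1a1, rose, Krt19 had a slope of 1.71 (SE 0.57, adjusted p = 0.0869 in limma), and the part of this in the members' slopes was not tested.

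Between the prefixes the ranges of 27 of 28 members overlapped. The exception was Scd2, at 1897 to 2336 normalized counts in the 4 Whe10 clones and at 2725 to 4286 in the 4 Whe3 clones. Over all tested genes 4.55% were higher in Whe3 without overlap and 5.74% higher in Whe10. The mean of the 4 Whe10 clones was above that of the 4 Whe3 clones for 18 of 18 sterol enzymes, by 0.62 in log2 for Idi1 and by 0.04 for Mvk, with both low clones belonging to Whe3. The clones within Whe3 also spread more widely than those within Whe10 for 25 of 28 members. The share of all tested genes was not computed for either count. Over all genes, read counts also differed more between pairs of Whe3 libraries (chi-square per degree of freedom 43.3 to 60.7). Between pairs of Whe10 libraries it was 22.7 to 41.5. This measure is weighted toward genes with many reads, and it does not give how many genes spread more widely within Whe3. Whether the wider spread was particular to the members was not tested. Hmgcs1 was at 1777 ± 327 (SD, n = 4) in Whe10 and at 1464 ± 710 (SD, n = 4) in Whe3. The prefixes are not groups given by the labels, and no test was made between them.

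The 24 other genes of the pathway followed the members little. With Hmgcs1, 0 of 24 were called by limma and 4 had an unadjusted p under 0.05. Scap, the SREBP escort protein, lay between 1524 and 1882 normalized counts (slope 0.10, SE 0.07 on Hmgcs1), Mbtps1 and Mbtps2, the proteases that cut SREBPs, had slopes of -0.09 and 0.08, and Insig2 of -0.11. Fads1, a fatty acid desaturase, had a slope of 0.30 (SE 0.09, adjusted p = 0.397 in limma). Genes of sterol export and of the sterol sensor LXR had other patterns. Abca1, a cholesterol exporter, ran from 3101 through 5170 to 7485 normalized counts, Abcg1, another exporter, from 224 through 383 to 953 and Mylip, which degrades lipoprotein receptors, from 551 through 837 to 1100. All 3 were highest in Whe3 7A, the clone with the lowest sterol enzymes, but in Whe3 12A, the next lowest, Abca1 was at 4959, Abcg1 at 343 and Mylip at its minimum. Their slopes on Hmgcs1 were -0.17, -0.20 and 0.27, none of them called. Of the 24 genes, Lpin1, a phosphatidate phosphatase, fell with Plk1 (slope -0.51, SE 0.13, adjusted p = 0.0472 in limma), and 0 were called with Mettl3.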

How the data were processed

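Bulk RNA-sequencing of 9 WTg MPC clones, a single group, was analysed from a gene table. The authors deposited log2 values of read counts scaled by 1 factor per library with an offset of 4, and the sequencing libraries were made with a TruSeq stranded mRNA kit. Undoing the log2 gave whole reads for 100% of values under 1000 reads (tolerance 0.1 read). The submitters' processing notes name GRCm38, FastQC 0.11.9, STAR 2.7.10 and RSEM 1.3.3 without a role, and the scaling tool is not given in the sources used here. The table also holds 6 columns of other samples, which were not used. Depth was 12198042 to 20453901 reads. The floor covers counting error only.

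The members and lists were chosen with earlier results of these data known. All 28 members are named with their lowest and highest values, part of them also with the median, and called members with slope, SE and adjusted p. Slopes were fitted with limma 3.58.1 (lmFit and eBayes with a trend, R 4.3.3) on the deposited log2 values, for genes whose mean reached 10 normalized counts, and adjusted by Benjamini-Hochberg over all of them. The fits were tested on simulated data, where that on Fasn recovered none of the changed genes and the other 3 recovered part of them. P-values measure only the spread between these clones. Alternatives were an offset of 1, no filter, a filter at a mean of 50, upper quartile scaling, the prefix as a term, each library left out, and, added after seeing the data, limma's voom on the recovered reads with the authors' scaling. Markers of fibroblasts, macrophages, epithelial, acinar, endothelial and adipose cells were listed. Promoters were RefSeq windows (GRCm38.p6). Python 3.11.15 with pandas 2.3.3, numpy 2.4.6 and matplotlib 3.10.9 was used.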

Additional observations from a re-analysis of the deposited data

Results flagged for a closer look

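In 4 of the 28 members 1 clone stood apart from the others, by the gap to its neighbour as a share of the gene's whole range (Dixon's ratio, above its 95% critical value for 9 samples). These were Fasn, lowest in Whe3 7A with a ratio of 0.685, Elovl6, lowest in Whe3 7A with 0.592, Sqle, lowest in Whe3 7A with 0.51, and Scd1, highest in MET with 0.502. Chance flags about 5% of groups, or 1.4 of 28. The 3 low values were 2540, 105 and 415 normalized counts, and the high one was 2191.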

How the results depend on the processing

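No paired analysis was possible because there is 1 group of samples. With 1 library left out in turn, limma called 0 to 38 genes and 0 to 10 members with Hmgcs1, 0 to 417 genes and 0 to 1 members (Acly, without Whe3 11A) with Mettl3, 86 to 1803 genes and 0 to 5 members with Plk1, and 0 to 0 genes with Fasn. With the prefix as a term and without MET it called 24 genes with Hmgcs1, 1 with Fasn, 0 with Mettl3 and 102 with Plk1, compared with 11, 0, 323 and 1289 over all 9 clones. With voom 61 genes were called with Mettl3. Voom with a TMM scaling was not run. The cause of these differences was not tested. Stard4 passed narrowly with Hmgcs1, and its adjusted p in limma was 0.0503 without a filter, 0.0501 after upper quartile scaling and 0.0710 with voom. An offset of 1 and a filter at a mean of 50 changed no call among the members. The 7 members called with Hmgcs1 kept the sign of their slope in all 15 alternatives. The median SD of the members stayed between 0.36 and 0.43 with 1 library left out. Upper quartile scaling moved no library by more than 0.07 in log2. The lowest member value, 71 reads for Elovl6 in Whe3 7A, was above the floor of 3 reads, and the part of depth in the differences between clones was not tested.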
